A study of Mus musculus with 22 samples.

Results

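The prefrontal cortex (PFC) of *Phf8* knockout (KO) mice was compared with that of wild-type (WT) mice. PHF8 is an X-linked histone demethylase that removes repressive methyl groups from histones, and the study asked whether its loss alters gene expression in brain regions tied to stress and mood. The samples were chosen by their labels alone, as all 6 labelled Prefrontal Cortex among the 22 RNA samples of the series, which also held ventral striatum (STR), embryonic stem cells and neural progenitors. The 3 WT and 3 KO samples came from mice aged 2 months on the B6x129SvJ background. KO mice lacked a pair of *Phf8* exons that encode part of the catalytic domain. The exons were deleted in V6.5 embryonic stem cells, clones of which were injected to found the line, so the deletion was not limited to a cell type. The labels do not say that each sample was a separate animal, so p-values measure the spread between samples, which may be partly technical.

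The prefrontal cortex is built of glutamatergic projection neurons in layers, GABAergic interneurons, astrocytes, oligodendrocytes with their precursors, microglia and blood vessels. Oligodendrocytes wrap axons in myelin, a stack of membrane rich in galactolipids and cholesterol and held together by a small set of very abundant proteins. Their precursors leave the cell cycle and then make the myelin proteins and lipids. SOX10, NKX6-2 and MYRF are transcription factors of this lineage. In RNA from whole tissue, fewer cells of a type and less RNA per cell cannot be told apart.

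Gene counts totalled 5898286 to 10148073 in the WT samples and 7534883 to 8316647 in the KO samples. The tissue label was checked against cell-type genes: *Slc17a7*, the vesicular glutamate transporter of cortical projection neurons, stood at 476 ± 96.6 CPM (SD, n = 3; counts scaled by TMM to a common library size) in WT, whereas the hypothalamic hormone gene *Oxt* stood at 0.342 ± 0.204 CPM (SD, n = 3). *Xist* had at most 2 counts and the Y-linked *Ddx3y* had at least 481 counts in every sample. The 3 KO samples resembled each other (mean r of log values 0.991 to 0.992) more than the 3 WT samples did (0.985 to 0.988). WT replicate 1 correlated slightly better with the KO samples (0.989) than with the other WT samples (0.987).

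*Phf8* (ENSMUSG00000041229, chromosome X, positions 151520672 to 151633859 of GRCm38, plus strand) was measured at 50.6, 49.2 and 42.7 CPM in the WT samples, against 22.5, 16.8 and 15.96 CPM in the KO samples. The groups did not overlap, and *Phf8* fell by 1.37 on the log2 scale (SE 0.13, adjusted p = 0.00193, quasi-likelihood test of edgeR, adjusted by Benjamini-Hochberg). Counts were taken over the whole gene, so reads from the exons that remain in KO still counted.

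Of 15364 genes tested, 25 (0.163%) were higher and 73 (0.475%) were lower in KO at an FDR under 0.05. Changes were small, with a median absolute log2 fold change of 0.73 among the 98 genes and a smallest one of 0.37. Median exonic length was 6754 bases for the genes that rose, 3871 for those that fell and 4299 for all genes tested. The part of gene length in the changes was not tested. Oligodendrocyte and myelin genes made up 31 of the 73 genes that fell (42.5%), against 64 of the 15364 genes tested. On any of the 53 gene lists stood 39 of the 73 that fell and 14 of the 25 that rose, against 1473 of the genes tested. The lists were chosen with earlier results of these data known, so these shares may be partly built in. At an unadjusted p under 0.05, 727 genes (4.73%) were higher and 998 (6.50%) were lower, and every KO sample lay above every WT sample for 7.74% of genes and below for 9.35%. These counts depended on single libraries. Without KO replicate 2 or KO replicate 3, 0 genes rose and 2 fell, and without WT replicate 2, 4 rose and 14 fell. Without KO replicate 1, 5 rose and 32 fell, without WT replicate 1, 39 rose and 115 fell, and without WT replicate 3, 39 rose and 85 fell.

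Among oligodendrocyte and myelin genes, 63 of the 64 tested had a negative log2 fold change and 31 of the 64 fell. Their median log2 fold change was -0.66, against -0.02 over all genes tested. At an unadjusted p under 0.05, 57 of the 64 (89.1%) were lower, and for 52 of the 64 every KO sample lay below every WT sample. Summed over the list, the WT samples held 5897, 6799 and 7336 CPM and the KO samples 5115, 4797 and 4785 CPM. Every KO sample was thus below every WT sample, and the 3 KO sums lay closer together than the 3 WT sums. The number called lower was 39 without WT replicate 1, 23 without WT replicate 3, 10 without WT replicate 2, 19 without KO replicate 1 and 0 without KO replicate 2 or KO replicate 3, whereas the list's median stayed between -0.74 and -0.57 under every setting tried. In the fit of all 12 brain samples together, 6 of the 64 were called lower.

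**Figure D1:**
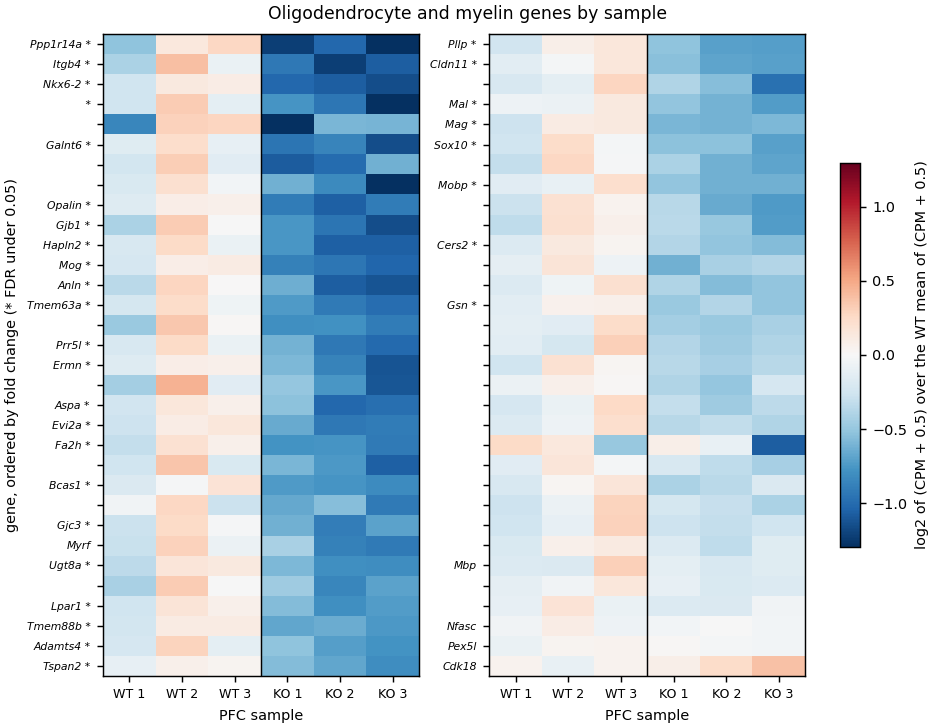
Each of the 64 oligodendrocyte and myelin genes tested (vertical, ordered by fold change, an asterisk for an FDR under 0.05, names for a part of the genes) in each of the 6 PFC samples (horizontal), as the log2 of (CPM + 0.5) over the mean of (CPM + 0.5) in the 3 WT samples. The 3 KO columns are blue for nearly all genes, and *Nfasc*, *Pex5l* and *Cdk18* at the lower right are among the exceptions, with little change or a higher value.

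The bases before the transcription start of the leading oligodendrocyte genes show what the listed factors could meet there. Promoter sequence from RefSeq (GRCm38.p6, 250 bases before the annotated start, 5′ to 3′ on the strand of the gene) is given for the 3 members with the smallest adjusted p that had an entry. Capitals mark matches to the SOX core ACAAAG or to the MYRF motif CTGGCAC or CTGGTAC, searched on both strands. *Mog* lies on chromosome 17 (chr17:37023399-37023648, minus strand), *Opalin* on chromosome 19 (chr19:41077114-41077363, minus strand) and *Tspan2* on chromosome 3 (chr3:102734520-102734769, plus strand).
Mog: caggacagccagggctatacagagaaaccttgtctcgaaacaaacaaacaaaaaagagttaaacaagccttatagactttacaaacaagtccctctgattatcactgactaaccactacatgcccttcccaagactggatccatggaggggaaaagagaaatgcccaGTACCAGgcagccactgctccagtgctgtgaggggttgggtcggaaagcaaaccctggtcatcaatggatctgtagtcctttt
Opalin: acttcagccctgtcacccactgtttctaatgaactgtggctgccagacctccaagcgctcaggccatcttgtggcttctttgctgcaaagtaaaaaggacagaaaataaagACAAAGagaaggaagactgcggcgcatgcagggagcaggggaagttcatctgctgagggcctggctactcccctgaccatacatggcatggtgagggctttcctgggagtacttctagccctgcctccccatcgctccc
Tspan2: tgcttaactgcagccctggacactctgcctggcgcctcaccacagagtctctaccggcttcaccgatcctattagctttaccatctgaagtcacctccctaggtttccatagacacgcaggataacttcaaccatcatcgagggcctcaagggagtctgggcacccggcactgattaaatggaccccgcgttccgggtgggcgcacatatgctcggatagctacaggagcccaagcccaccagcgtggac

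The *Mog* window held 1 match to the MYRF motif, the *Opalin* window held 1 to the SOX core, 133 bases before the start, and the *Tspan2* window held neither. *Tspan2* also differed in base composition, with 12 CG pairs against 2 in *Mog* and 4 in *Opalin*. Among the 41 oligodendrocyte genes with an entry, 11 (26.8%) held the SOX core and 7 (17.1%) the MYRF motif. Of the 11288 tested genes with an entry, 11.6% held the SOX core and 5.4% the MYRF motif. These are matches of letters in a short window and show no binding.

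*Mog*, the glycoprotein of the outermost myelin layer, was measured at 63.9, 79.0 and 79.9 CPM in WT, against 40.3, 38.5 and 36.1 CPM in KO. All KO samples lay far below the lowest WT sample, and *Mog* fell by 0.95 on the log2 scale (SE 0.10, adjusted p = 0.00369, edgeR's quasi-likelihood test). *Opalin*, a membrane glycoprotein of the inner loops, stood at 32.1, 38.5 and 37.9 CPM in WT and 18.9, 17.1 and 19.04 CPM in KO, again without overlap (log2 fold change -0.98, SE 0.11). *Tspan2*, a tetraspanin of maturing oligodendrocytes, fell by 0.68 (SE 0.08), *Cldn11*, the tight junction protein of myelin, by 0.64 (SE 0.09), and *Mal*, a proteolipid of membrane sorting, by 0.61 (SE 0.08) on the log2 scale. *Mag*, the glycoprotein facing the axon, fell by 0.60 (SE 0.10). *Hapln2*, the link protein of the matrix at nodes of Ranvier, stood at 60.04 ± 10.2 CPM in WT and 30.8 ± 3.99 CPM in KO (SD, n = 3).

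*Mobp*, which encodes an abundant myelin protein, fell by 0.59 on the log2 scale (SE 0.10). *Mbp*, which holds the cytoplasmic faces of the sheath together, stood at 505, 502 and 706 CPM in WT and 521, 494 and 511 CPM in KO. The groups overlapped, the log2 fold change was -0.17 (SE 0.12, adjusted p = 0.700, edgeR), and WT replicate 3 alone was high. Ordered by level per kilobase of exon (RPKM, mean of all 6 samples), the 16 most abundant genes of the list, from 33.02 to 77.9 RPKM, had a median log2 fold change of -0.39, and 5 of them fell. The next 16, from 16.3 to 31.5 RPKM, had a median of -0.62 with 11 falling, and the 16 below them a median of -0.79 with 11 falling. The 16 least abundant, from 0.744 to 6.74 RPKM, had a median of -0.84, with 4 falling. These medians are given as a description without a test.

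Of 4 transcription factors of the lineage on the list, 2 fell. *Nkx6-2*, a homeodomain factor, was measured at 23.1, 30.2 and 29.7 CPM in WT, against 13.4, 12.9 and 12.2 CPM in KO, and fell by 1.10 on the log2 scale (SE 0.14, adjusted p = 0.00472, edgeR's quasi-likelihood test). *Sox10*, a SOX family factor, stood at 65.7, 92.4 and 77.3 CPM in WT, against 54.1, 54.2 and 48.01 CPM in KO (log2 fold change -0.59, SE 0.12). Neither factor overlapped between genotypes. *Olig1* and *Myrf* are named here after their values were seen. *Olig1* overlapped between genotypes and had a log2 fold change of -0.31 (SE 0.10, adjusted p = 0.203, edgeR). *Myrf* had a log2 fold change of -0.73 (SE 0.17) that did not pass the test (adjusted p = 0.114, edgeR).

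Oligodendrocytes couple to each other and to astrocytes through connexins, and connexin genes of the list fell, among them *Gjb1* by 0.97 (SE 0.18) and *Gjc3* by 0.75 (SE 0.13) on the log2 scale. Enzymes of myelin lipids fell too. On a list of 23 genes for myelin lipid synthesis, 4 fell and 0 rose, and 11 (47.8%) were lower at an unadjusted p under 0.05. The 4 were *Ugt8a*, which makes galactosylceramide (-0.73), *Fa2h*, which hydroxylates its fatty acid (-0.83), *Cers2*, which makes very long chain ceramides (-0.49), and *Aspa*, which frees acetate from N-acetylaspartate (-0.84). All 4 also stand on the oligodendrocyte list. By contrast, 0 of 25 cholesterol synthesis genes passed the test in edgeR or in DESeq2, with 3 higher and 0 lower at an unadjusted p under 0.05 and a median log2 fold change of 0.10.

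The remaining members that fell had other roles in the same cells. *Bcas1*, found in oligodendrocytes that are laying down myelin, stood at 129, 145 and 167 CPM in WT and 88.1, 86.2 and 83.0 CPM in KO. The steepest decreases were those of *Ppp1r14a*, an inhibitor of myosin phosphatase (-1.22 on the log2 scale, SE 0.20), and *Itgb4*, the integrin beta 4 subunit (-1.12, SE 0.20). *Galnt6*, which starts O-linked sugar chains, fell by 1.004 (SE 0.13), *Anln*, the scaffold protein anillin, by 0.94 (SE 0.17) and *Tmem63a*, a mechanosensitive channel, by 0.89 (SE 0.13). *Ermn*, *Prr5l*, *Evi2a*, *Tmem88b*, *Pllp*, *Lpar1*, *Adamts4* and *Gsn* fell by between 0.46 (*Gsn*, the actin-severing gelsolin) and 0.87 (*Prr5l*) on the log2 scale. *S1pr5*, a receptor for sphingosine 1-phosphate, was not on the oligodendrocyte list and fell by 0.69 (SE 0.12).

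Few precursor genes passed the test. Of 18 precursor genes tested, 1 fell, 0 rose, and the median log2 fold change was -0.07. At an unadjusted p under 0.05, 4 (22.2%) were lower and 0 higher, 14 of the 18 log2 fold changes were negative, and DESeq2 called 2 lower. The gene that fell in edgeR was *Enpp6*, a choline phosphodiesterase of newly forming oligodendrocytes, at 10.1, 12.6 and 11.3 CPM in WT and 7.18, 4.55 and 4.56 CPM in KO. Of the first 3 markers of the list, *Pdgfra*, the growth factor receptor that defines precursors, stood at 72.1 ± 6.87 CPM in WT and 70.4 ± 3.81 CPM in KO, *Cspg4* at 26.1 ± 7.08 and 25.3 ± 2.90 CPM, and *Gpr17* at 54.7 ± 8.61 and 58.4 ± 6.16 CPM (SD, n = 3 each). All 3 overlapped between genotypes.

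**Figure D2:**
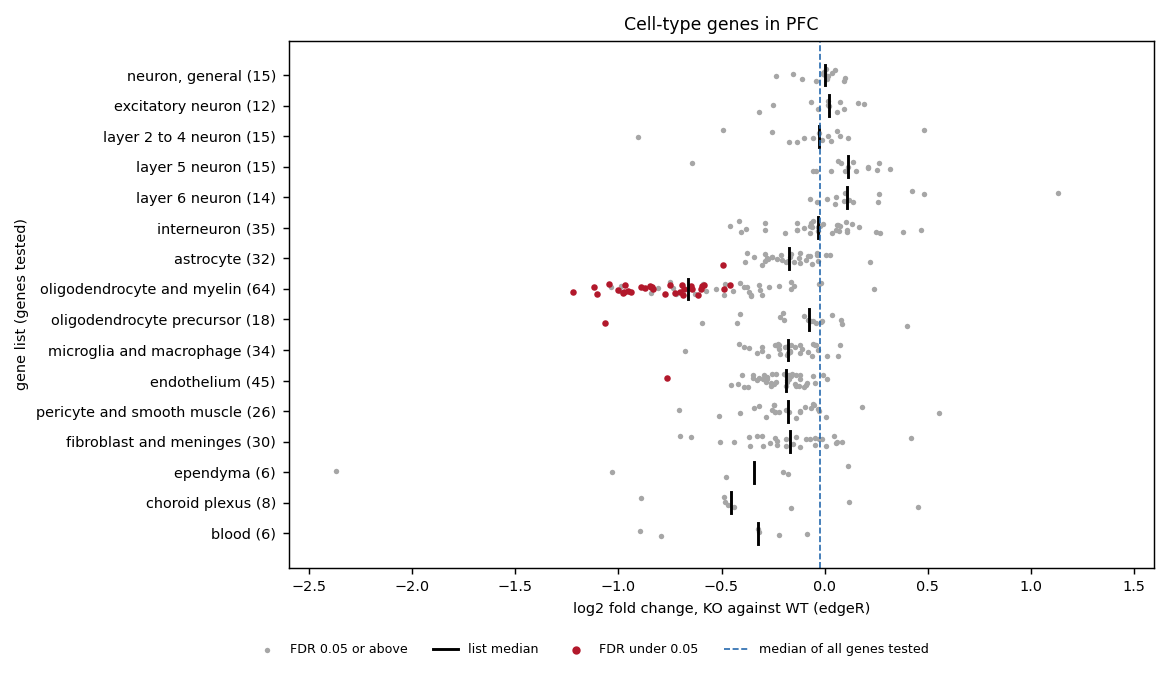
Log2 fold change of KO against WT in PFC (horizontal) for each gene of 16 cell-type lists (vertical, with the number of genes tested), red for an FDR under 0.05, a black bar at the list median and a dashed line at the median of all genes tested. Oligodendrocyte genes are shifted to a median of -0.66, whereas the astrocyte, microglia, endothelium, pericyte and fibroblast lists have medians between -0.19 and -0.17 and the general neuron list one of 0.00. The short lists for choroid plexus (8 genes tested), ependyma (6) and blood (6) have medians of -0.455, -0.34 and -0.32, with 0 genes past the FDR.

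The other glial and vascular lists leaned lower with few calls. Of 32 astrocyte genes, 1 fell and 13 (40.6%) were lower at an unadjusted p under 0.05, with a median log2 fold change of -0.17, and the list's sums did not overlap (4918 to 5570 CPM in WT, 4703 to 4881 CPM in KO). The gene that fell was *Gfap*, the intermediate filament of astrocytes, at 160, 165 and 166 CPM in WT and 123, 110 and 117 CPM in KO (log2 fold change -0.49, SE 0.07, adjusted p = 0.0114, edgeR's quasi-likelihood test). *Aqp4*, the water channel of astrocyte endfeet, stood at 128 ± 4.80 CPM in WT and 110 ± 4.48 CPM in KO (SD, n = 3), without overlap and without passing the test (adjusted p = 0.188, edgeR). Of 34 microglia and macrophage genes, 0 passed the test in edgeR or DESeq2, 6 were lower and 0 higher at an unadjusted p under 0.05, and 31 of the 34 log2 fold changes were negative, with a median of -0.18. Every KO sample lay below every WT sample for 13 of these genes, and the list's sums did not overlap (1158 to 1205 CPM in WT, 1063 to 1092 CPM in KO). Of its first 3 markers, *Tmem119* had a log2 fold change of -0.16 (adjusted p = 0.593, edgeR). Its lowest WT sample, at 35.94 CPM, all but met its highest KO sample, at 35.92 CPM. *P2ry12*, a purine receptor, stood at 51.8 ± 2.99 CPM in WT and 50.2 ± 4.47 CPM in KO (SD, n = 3). *Cx3cr1*, the fractalkine receptor, stood at 76.7 ± 6.66 CPM in WT and 80.7 ± 4.61 CPM in KO (SD, n = 3).

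Of 45 endothelial genes, *Vwf*, von Willebrand factor, was the 1 that passed the test, going from 25.7, 29.1 and 26.1 CPM in WT to 12.9, 20.1 and 14.6 CPM in KO, and 44 of the 45 had a negative log2 fold change, with a median of -0.19. Of these, 10 (22.2%) were lower and 0 higher at an unadjusted p under 0.05. The call of *Vwf* (adjusted p = 0.0494, edgeR) was lost with RLE size factors, with at least 10 counts required in every sample, in the fit of all 12 brain samples and whenever any 1 PFC sample was left out. *Cldn5*, the tight junction protein of the blood-brain barrier, stood at 57.8 ± 3.07 CPM in WT and 51.3 ± 8.59 CPM in KO (SD, n = 3) and overlapped. In 26 pericyte and smooth muscle genes and 30 fibroblast and meningeal genes, 0 passed the test in edgeR or DESeq2, 2 and 5 were lower and 0 and 1 higher at an unadjusted p under 0.05, and the medians were -0.18 and -0.17.

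Genes of tissue next to the cortex were scored because they could enter a dissection. Summed over 12 ependymal genes, the WT samples held 22.3 to 26.6 CPM and the KO samples 14.2 to 18.7 CPM, without overlap, and 2 of the 6 genes tested were lower at an unadjusted p under 0.05. *Foxj1*, the factor of ciliated cells, stood at 8.77 ± 0.999 CPM in WT and 4.28 ± 1.03 CPM in KO (SD, n = 3; adjusted p = 0.0503, edgeR). Choroid plexus genes summed to 35.9 to 65.5 CPM in WT and 41.6 to 45.7 CPM in KO, and blood genes to 128 to 160 CPM in WT and 119 to 122 CPM in KO, the latter without overlap. Striatal genes summed to 1109 to 1128 CPM in WT and 1107 to 1177 CPM in KO, and hypothalamic genes to 49.7 to 66.1 and 54.3 to 72.2 CPM. Of 21 striatal genes tested, *Rxrg* rose, and 5 (23.8%) were higher and 1 lower at an unadjusted p under 0.05. *Drd1*, the dopamine receptor of one class of striatal projection neuron, stood at 21.5 ± 2.78 CPM in WT and 28.2 ± 0.761 CPM in KO (SD, n = 3; adjusted p = 0.179, edgeR), without overlap. Of 4 hypothalamic genes tested, 2 were higher and 0 lower at an unadjusted p under 0.05, and DESeq2 called 1 higher. In all, 1 striatal gene and 2 hypothalamic genes were at 0 in all 6 samples. The part of the ependymal and blood signals in the lower oligodendrocyte values was not tested.

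No gene of the general neuron, excitatory neuron, cortical layer or interneuron lists passed the test. Of 15 general neuron genes, 0 passed the test in edgeR or DESeq2, 1 was lower and 0 were higher at an unadjusted p under 0.05, and the median log2 fold change was 0.00. *Rbfox3*, which encodes the neuronal nuclear antigen NeuN, stood at 258 ± 15.2 CPM in WT and 258 ± 6.95 CPM in KO (SD, n = 3). Excitatory neuron genes (12) had a median of 0.02, those of layers 2 to 4 (15) one of -0.03 and interneuron genes (35) one of -0.03. In these 3 lists 0 passed the test in edgeR or DESeq2, and 3 were higher and 5 lower at an unadjusted p under 0.05. Layer 5 (15 genes) and layer 6 (14 genes) had medians of 0.11 each, with 12 positive log2 fold changes in each list, and again 0 passed the test in edgeR or DESeq2. In layer 5, 2 genes were higher and 1 lower at an unadjusted p under 0.05, and in layer 6, 4 (28.6%) were higher and 0 lower. Summed over the layer 5 genes, KO samples held 1239 to 1284 CPM against 1090 to 1212 CPM in WT, without overlap. *Bcl11b*, a factor of layer 5 output neurons, stood at 127 ± 10.3 CPM in WT and 152 ± 2.24 CPM in KO (SD, n = 3; adjusted p = 0.159, edgeR), with every KO sample above every WT sample.

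Cell adhesion held the first of the genes that rose. *Pcdh19*, an X-linked protocadherin, was measured at 66.3, 58.8 and 57.8 CPM in WT, against 93.6, 95.2 and 100 CPM in KO. The genotypes were far apart, and *Pcdh19* rose by 0.66 on the log2 scale (SE 0.08, adjusted p = 0.00472, edgeR's quasi-likelihood test). *Pcdh17* (0.41, SE 0.08) and *Cdh13*, a cadherin anchored to the membrane by a lipid (0.54, SE 0.10), also rose, so that 3 of 34 cadherin and protocadherin genes rose and 0 fell. At an unadjusted p under 0.05, 12 (35.3%) were higher and 3 lower, and the list's median was 0.18. Among 56 synaptic adhesion genes, *Sdk1*, an immunoglobulin adhesion molecule, rose from 13.5, 11.6 and 10.4 CPM in WT to 19.4, 20.2 and 23.3 CPM in KO. In that list 20 (35.7%) were higher and 1 lower at an unadjusted p under 0.05, and 47 of 56 log2 fold changes were positive, with a median of 0.17.

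**Figure D3:**
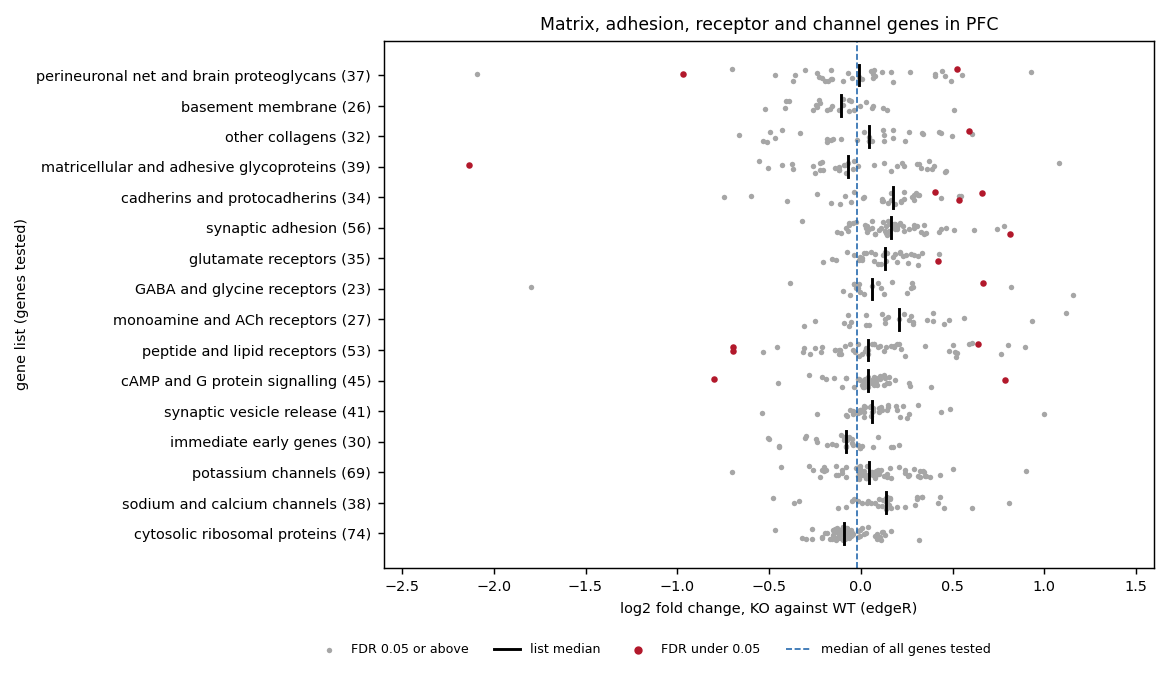
Log2 fold change of KO against WT in PFC (horizontal) for each gene of 16 lists of matrix, adhesion, receptor, channel and other genes (vertical, with the number of genes tested), red for an FDR under 0.05, a black bar at the list median and a dashed line at the median of all genes tested. The medians of the cadherin, synaptic adhesion, glutamate receptor, monoamine receptor, and sodium and calcium channel lists lie between 0.13 and 0.21, with 0 to 3 genes of each past the FDR.

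Of the receptor and channel lists, those for glutamate, monoamine and acetylcholine receptors and for sodium and calcium channels had the higher medians. *Glra2*, the glycine receptor alpha 2 subunit, stood at 26.9, 24.7 and 26.6 CPM in WT and 42.2, 38.3 and 43.2 CPM in KO, and rose by 0.66 on the log2 scale (SE 0.10, adjusted p = 0.0139, edgeR). It was the single call among 23 genes for GABA and glycine receptors, of which 6 were higher and 2 lower at an unadjusted p under 0.05. *Grik3*, a kainate receptor subunit, rose by 0.42 (SE 0.08). It was the 1 gene of 35 glutamate receptor genes that passed the test, while 12 (34.3%) were higher and 1 lower at an unadjusted p under 0.05 (list median 0.13). Receptors for monoamines other than serotonin and for acetylcholine (27 tested) had 0 calls in edgeR and DESeq2, 8 higher and 0 lower at an unadjusted p under 0.05, and a median of 0.21. *Htr1a*, the serotonin receptor gene among the 12 leading increases, stood at 20.5, 27.4 and 24.8 CPM in WT and 36.5, 41.4 and 47.2 CPM in KO. Of 38 sodium and calcium channel genes, 0 passed the test in edgeR and 5 rose in DESeq2, with 9 higher and 1 lower at an unadjusted p under 0.05 and a median of 0.14. Of 69 potassium channel genes, 0 passed in either tool, and 6 were higher and 5 lower at an unadjusted p under 0.05.

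Summed over each list, KO samples lay above WT samples without overlap for cadherins and protocadherins (2810 to 2974 against 2251 to 2691 CPM), synaptic adhesion genes (7480 to 7935 against 7126 to 7385 CPM) and glutamate receptors (4648 to 4957 against 4301 to 4476 CPM). The same held for the monoamine and acetylcholine receptors (1144 to 1149 against 1050 to 1084 CPM) and for sodium and calcium channels (5991 to 6358 against 5455 to 5886 CPM). It held as well for collagens outside basement membranes (468 to 548 against 369 to 466 CPM) and Wnt signalling genes (1270 to 1280 against 1168 to 1250 CPM). These 2 lists did not rise broadly. The Wnt list had a median log2 fold change of 0.01, with 22 positive and 20 negative, and the collagen list one of 0.05, with 19 positive and 13 negative. At an unadjusted p under 0.05, 8 Wnt genes were higher and 5 lower. In contrast, sums for synaptic vesicle release genes overlapped (10500 to 11140 CPM in KO, 9585 to 11420 CPM in WT), as did those of the general neuron list (5045 to 5366 and 4520 to 5981 CPM). WT replicate 3, the library with the fewest gene counts, gave the lowest WT sum for cadherins (2251 CPM), sodium and calcium channels (5455 CPM) and collagens (369 CPM). WT replicate 2 gave the lowest for synaptic adhesion genes (7126 CPM), glutamate receptors (4301 CPM), monoamine and acetylcholine receptors (1050 CPM) and Wnt genes (1168 CPM).

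Signalling genes changed singly. *Rxfp1*, the relaxin receptor, stood at 37.4, 37.9 and 46.4 CPM in WT and 64.7, 59.5 and 64.1 CPM in KO, and rose by 0.64 on the log2 scale (SE 0.10, adjusted p = 0.0182, edgeR). Of 53 peptide and lipid receptor genes it was the 1 that rose, and *Lpar1* and *S1pr5* were the 2 that fell. *Adcy7*, an adenylyl cyclase that makes cAMP, rose by 0.78 (SE 0.13), while *Pde8a*, a phosphodiesterase that breaks cAMP down, fell by 0.80 (SE 0.15). *Esr1*, the estrogen receptor alpha gene, had the highest fold change of the 12 leading increases, at 3.02, 2.69 and 2.95 CPM in WT and 6.94, 6.22 and 6.30 CPM in KO (log2 fold change 1.17, SE 0.20). *Rxrg*, the retinoid X receptor gamma gene, which also stands on the striatal list, rose by 1.11 (SE 0.19), so that 2 of 33 nuclear receptor genes rose and 0 fell. In Wnt signalling, *Rspo2*, a secreted enhancer of the pathway, rose by 0.51 (SE 0.10) and the ligand gene *Wnt10a* fell by 0.78 (SE 0.13) among 42 genes tested. *Gnb4*, a G protein beta subunit that is high in the claustrum, rose by 0.55 (SE 0.10), and *Hrk* (a BH3 protein of cell death) and *Ptchd1* (an X-linked patched-domain protein) rose by 0.47 (SE 0.08) and 0.83 (SE 0.14).

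**Figure D4:**
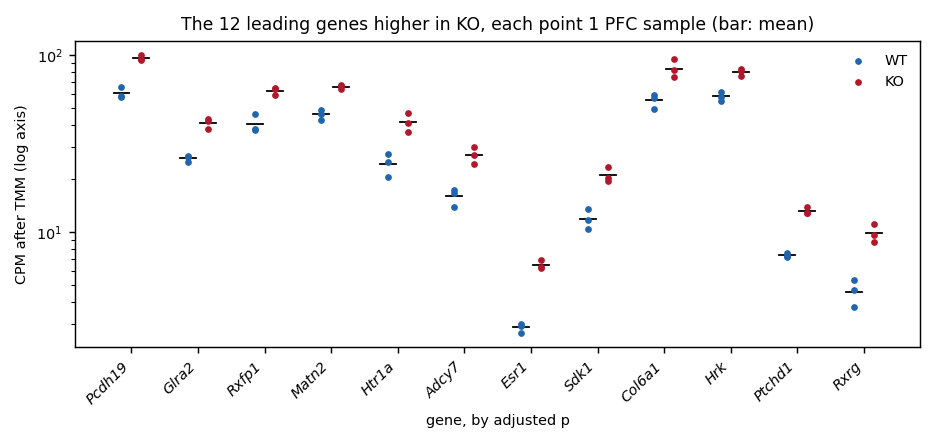
CPM after TMM scaling (vertical, log axis) of the 12 genes with the smallest adjusted p among those higher in KO, for each of the 3 WT (blue) and 3 KO (red) PFC samples, with a bar at each mean. The genotypes do not overlap in any of the 12 genes, and the means range from 2.89 CPM for *Esr1* in WT to 96.4 CPM for *Pcdh19* in KO.

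Matrix lists held single calls in both directions. Among the list genes past the test, the steepest decrease was that of *Thbs4*, thrombospondin 4, a secreted matrix glycoprotein, from 15.3, 17.2 and 13.5 CPM in WT to 3.34, 3.71 and 3.49 CPM in KO. *Thbs4* fell by 2.13 on the log2 scale (SE 0.17, adjusted p = 0.00048, edgeR's quasi-likelihood test) and was the 1 of 39 matricellular and adhesive glycoprotein genes to pass the test. *Matn2*, a matrilin that bridges matrix filaments, rose from 46.1, 43.01 and 49.1 CPM in WT to 66.4, 67.9 and 63.8 CPM in KO. With *Hapln2*, which fell, it was 1 of 2 genes past the test among 37 genes of perineuronal nets and brain proteoglycans, whose median was -0.01. At an unadjusted p under 0.05, 4 of these 37 (10.8%) were higher and 8 (21.6%) lower. Of the 39 matricellular genes, 4 were higher and 3 lower by that measure. *Col6a1*, a chain of collagen VI, rose by 0.59 (SE 0.10), the 1 call among 32 collagens outside basement membranes, of which 5 were higher and 3 lower at an unadjusted p under 0.05. Basement membrane genes (26) had 0 calls in edgeR and DESeq2, with 1 higher and 2 lower at an unadjusted p under 0.05. Of the matrix enzymes (41) and integrins (18), *Adamts4* and *Itgb4* fell, and both also stand on the oligodendrocyte list. At an unadjusted p under 0.05, 5 matrix enzyme genes were higher and 4 lower, and 1 integrin gene was higher and 1 lower.

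*Thbs4*, *Erbin* and *Htr1a* were the 3 genes of chromosome 13 past the test and lie between 92751590 and 105448122 of GRCm38. *Erbin*, a scaffold protein that binds the ERBB2 receptor, stood at 139, 162 and 148 CPM in WT and 97.2, 91.5 and 92.0 CPM in KO, without overlap. Chromosome 13 held 564 of the genes tested, so 3 of 564 passed there, against 98 of 15364 over all genes. The genes tested within the span on chromosome 13 were not counted. Chromosome X, which carries *Phf8*, held 565 of the genes tested, of which 3 rose and 4 fell, *Phf8* among the latter. No grouping by position was tested on either chromosome.

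Housekeeping and stress programmes held no calls. In edgeR and DESeq2 alike, 0 genes passed the test among 74 cytosolic ribosomal protein genes, 44 nuclear genes of the respiratory chain, 26 heat shock and unfolded protein response genes, 37 cell cycle genes, 25 genes of antigen presentation by MHC class I and interferon response, and 30 immediate early genes. At an unadjusted p under 0.05, 3 of these genes were higher and 4 lower, in all 236. Log2 fold changes were negative for 43 of the 44 respiratory chain genes, 60 of the 74 ribosomal protein genes and 24 of the 30 immediate early genes. The respiratory chain sums still overlapped (4013, 3819 and 5211 CPM in WT, 4037, 4112 and 4248 CPM in KO), with WT replicate 3 alone high. A count of signs within a list can thus lean to 1 side without separation of the genotypes. Among 36 genes for KDM7 demethylases and enzymes of repressive histone marks, *Phf8* was the 1 gene past the test, and the list's median was -0.01. Immediate early genes, which neurons switch on within minutes of activity, summed to 2419 to 3741 CPM in WT and 2317 to 3478 CPM in KO, a spread within each genotype larger than the gap between them.

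The ventral striatum of the same genotypes and age, again 3 WT and 3 KO samples, served as a second region. There 0 of 15476 genes passed an FDR under 0.05 with edgeR, the one tool run on that region alone, and 5.67% were higher and 3.02% lower at an unadjusted p under 0.05. The oligodendrocyte list had a median log2 fold change of -0.06 in STR, 1 of the 64 genes was lower and 0 were higher at an unadjusted p under 0.05, and the summed CPM overlapped (5305 to 6224 in WT, 5020 to 6391 in KO). The difference between the regions was tested over all 12 samples. At an unadjusted p under 0.05 the effect was lower in PFC than in STR for 38 of the 64 genes, against 3.89% of all 16028 genes tested, and it was higher for 0 of the 64, against 2.51% of all genes, but 0 of the 64 passed an FDR under 0.05 in edgeR and 2 did in DESeq2. For *Nkx6-2* the log2 fold change was -1.10 in PFC and 0.35 in STR, for *Mog* -0.95 and -0.23, and for *Opalin* -0.98 and -0.14.

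**Figure D5:**
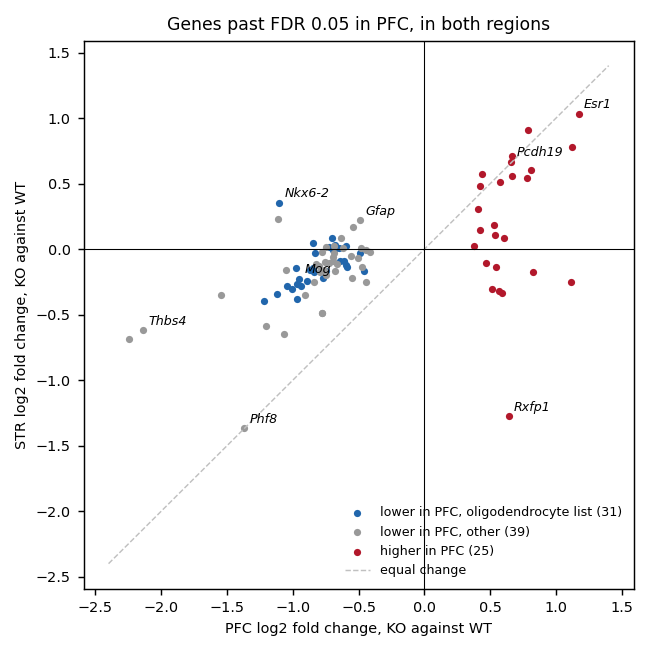
Log2 fold change of KO against WT in PFC (horizontal) and in STR (vertical) for the genes past an FDR of 0.05 in PFC that were also tested in STR, with oligodendrocyte genes in blue, the other genes lower in PFC in grey and genes higher in PFC in red, and a dashed line where both are equal. *Phf8* and *Pcdh19* lie on the line, the oligodendrocyte genes lie near 0 in STR, and *Rxfp1* lies on the opposite side.

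The genes past the test in PFC were then read in STR, whose samples had no part in choosing them. Of the 25 that rose, 11 were also higher in STR at an unadjusted p under 0.05 and 1 was lower. In all, 17 had a log2 fold change above 0 in STR and 8 below. *Pcdh19* had a log2 fold change of 0.66 in PFC and 0.67 in STR, *Glra2* of 0.66 and 0.56, *Esr1* of 1.17 and 1.03, *Adcy7* of 0.78 and 0.91, and *Sdk1* of 0.81 and 0.60. Of the same 12 leading increases, *Col6a1* (-0.34), *Hrk* (-0.11), *Ptchd1* (-0.17), *Rxrg* (-0.25) and *Rxfp1* (-1.28) had negative log2 fold changes in STR. Of the 73 genes that fell, 70 were tested in STR and 3 (4.3%) were lower there at an unadjusted p under 0.05, with *Phf8* at -1.37 in both regions. In STR, 55 of the 70 had a log2 fold change below 0 and 15 above, with a median of -0.13. *Rxfp1* was the 1 gene whose effect differed between the regions at an FDR under 0.05 (0.00624% of genes tested). Whether both regions came from the same mice is not stated in the labels. Of 8 hypothalamic genes tested in STR, 6 were higher in KO and 0 lower at an unadjusted p under 0.05. The list summed there to 349 to 461.5 CPM in WT and 503.9 to 945.8 CPM in KO, without overlap. The paper could not reproduce its striatal differences of *Oxt* and *Avp* by qRT-PCR and proposes hypothalamic contamination for some of them. The part of neighbouring tissue in the STR values was not tested.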

How the data were processed

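RNA from prefrontal cortex was measured in 3 WT and 3 KO samples, grouped by their labels. The authors prepared TruSeq libraries, called reads with CASAVA 1.7 per the submitters' processing notes, aligned them with STAR to mm10 and counted them with HTSeq on Ensembl genes. The values the authors deposited are raw counts per gene. How the counting used strand is not given in the sources used here, so reads of overlapping antisense genes cannot be told apart. Between 5898286 and 10148073 reads per sample fell on genes. Lines for reads without a gene (10.1% to 13.0% of the sum of all lines, those of genes included) or mapped to several places (7.62% to 8.90%) were left out. Symbols and lengths came from GENCODE M21 (GRCm38), which matched 37693 of 39179 identifiers.

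WT and KO were compared with edgeR 4.0.16 in R 4.3.3 (TMM scaling, edgeR's expression filter, robust quasi-likelihood test, no replicate block). Benjamini-Hochberg adjustment ran over all genes tested, with an FDR under 0.05 as threshold. The standard error of a log2 fold change is its size divided by the square root of the F statistic. CPM and RPKM were computed here. The code was tested on simulated data. Alternatives were DESeq2 1.42.0, RLE size factors, other filters, a replicate block, one fit of all brain samples, a log2 fold change beyond 1, and leaving out each sample. Replicates of a group differed by more than sampling noise (chi-square over its degrees of freedom at least 1.87), and each sample was taken as 1 replicate.

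The 53 gene lists and the genes followed were chosen with earlier results of these data known. Of 1701 list entries, 5 matched no gene (*Lhfpl3*, *Dchs2*, *Galr3*, *Pde2a* and *Rps3a*). Genes named are *Phf8*, the 12 up and 12 down with the smallest adjusted p, every list member past the threshold, the first 3 of each cell-type list, and genes that differed between regions. *Olig1*, *Myrf*, *Nfasc*, *Pex5l* and *Cdk18* were added after their values were seen. Some genes that this rule covers are not reported here.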

Additional observations from a re-analysis of the deposited data

Results flagged for a closer look

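*Rxfp1*, the relaxin receptor gene, was the 1 gene whose KO effect differed between the 2 brain regions at an FDR under 0.05. In PFC every KO sample was above every WT sample, with a log2 fold change of 0.64 (SE 0.10), whereas in STR the log2 fold change was -1.28 (SE 0.21), which did not pass the test there (adjusted p = 0.262, edgeR). The difference of the KO effect, PFC minus STR, was 1.94 on the log2 scale (adjusted p = 0.00155, edgeR's quasi-likelihood test of the interaction over 12 samples) on 16028 genes. In STR the list of 12 excitatory neuron genes had a median log2 fold change of -0.42. Its sums overlapped, at 1936 to 2227 CPM in WT and 1398 to 2052 CPM in KO. The part of the tissue make-up of the STR samples in the *Rxfp1* difference was not tested.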

How the results depend on the processing

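The count of genes higher in KO (25) was 137 with no expression filter, 60 in DESeq2, 46 with the replicate block, 5 in the fit of all 12 brain samples and 3 with a log2 fold change beyond 1 as well, and ranged from 0 to 39 when each sample was left out. The count lower (73) was 242 with no filter, 122 in DESeq2, 16 in the fit of all 12 samples and 15 with a log2 fold change beyond 1, and ranged from 2 to 115 when each sample was left out. It was 94 with the replicate block. Of the 98 genes, 93 were shared with DESeq2, 91 with the replicate block and 15 with the fit without WT replicate 2. Oligodendrocyte genes called lower (31) were 6 in the fit of all 12 samples and ranged from 0 to 39 when each sample was left out (0 without KO replicate 2 or KO replicate 3, 10 without WT replicate 2), while 37 were lower in DESeq2. The cause of these differences was not tested. Genes that differed between the regions (1) were 2 with no filter and 19 in DESeq2, and ranged from 1 to 3 when each sample was left out (3 without STR KO replicate 1 and 2 without STR KO replicate 3). None of the 56 named genes past the threshold changed direction in 672 comparisons with these settings. The 56 were chosen in the same PFC samples, so a kept direction is weak evidence of stability. Of the 56, 55 lost the call without KO replicate 2 and 55 without KO replicate 3. Another 42 lost it without WT replicate 2, 30 without KO replicate 1 and 43 in the fit of all 12 samples, while all 56 kept it in DESeq2. *Phf8* passed the test under every setting. Deviations from the group means were hardly correlated between same-numbered samples (r = 0.05, -0.03 and 0.04), but 4 of the 6 samples correlated best with their own number. These values do not settle whether the numbers pair the samples, and the main fit took them as names only. With 3 samples a group, depth and spread limit what can be seen for genes of low count.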

Other observations

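Among the genes past the test that stood on no list, several more fell in PFC, and they are named here after their values were seen. *Il33*, an alarmin cytokine of the interleukin 1 family, stood at 89.3, 108 and 111 CPM in WT and 66.4, 63.2 and 53.8 CPM in KO (log2 fold change -0.75, SE 0.10). *Neat1*, the long noncoding RNA that builds paraspeckles, stood at 87.2, 108 and 118 CPM in WT and 54.8, 63.05 and 63.97 CPM in KO (-0.78, SE 0.11). *Plxnb3*, a plexin receptor for semaphorins, fell by 0.84 (SE 0.14), *Ddr1*, a receptor kinase for collagen, by 0.41 (SE 0.07), and *Gatm*, which makes the precursor of creatine, by 0.48 (SE 0.10) on the log2 scale. None of the 5 overlapped between genotypes. In STR the log2 fold change of *Il33* was 0.01 and that of *Neat1* was -0.48.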
